A study of Mus musculus with 2 samples.

Results

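The 10 genes described here govern how glucose enters the cell and how fast it passes through glycolysis. They were measured in 2 RNA-seq libraries of mouse bone marrow-derived myeloid cells. All were taken by name from the deposited count table (10 of 54751 gene rows): the transporters Slc2a1 and Slc2a3, the hexokinases Hk1, Hk2 and Hk3, the opposed control enzymes Pfkfb3 and Fbp1, the triose-stage enzymes Aldoc and Tpi1, and the lactate dehydrogenase gene Ldha. The cells were labelled as WT (wild-type) myeloid-derived suppressor cells, or MDSCs, a class of immature myeloid cell known for dampening T cell responses. The control library came from a culture given vehicle and the other from a culture given mrWNT2, a preparation of the secreted signalling protein WNT2. In both, treatment was on day 0 and day 3 and collection on day 6. Both cultures grew in RPMI medium with serum. The sources used here do not give the mouse strain, age and sex or the dose of mrWNT2. Each group had 1 library, so no difference below has a replicate check, no p-value is given, and each comparison is between 2 libraries, not between the conditions.

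Glucose enters cells through facilitative transporters and is trapped by hexokinase as glucose 6-phosphate. Phosphofructokinase then commits it to glycolysis, and this step is switched on by fructose 2,6-bisphosphate, which PFKFB enzymes make, while fructose bisphosphatase runs the opposite reaction for gluconeogenesis. Aldolase and triose phosphate isomerase feed the lower pathway, and lactate dehydrogenase turns pyruvate into lactate and restores NAD+. Granulocytes and activated macrophages are known to lean on this route for energy.

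Total counts were 13474453 for control and 12621110 for mrWNT2. The label of myeloid cells was checked against marker genes: all 11 neutrophil genes and 6 of 7 monocyte genes were measured, whereas the lymphoid genes Cd3e, Cd3g, Ncr1, Klrb1c and Ms4a1 had at most 1 count in a library, Cd3d had 14 and 9 counts and Cd79a 40 and 27. Eosinophil genes (Prg2, Epx and Siglecf) and basophil or mast cell genes (such as Mcpt8 and Cpa3) were measured too, at summed levels of 950 and 202 CPM in control and 1121 and 187 CPM in mrWNT2. CPM is the count scaled to a library size adjusted by the TMM method. The summed neutrophil markers stood at 84235 CPM in control and 67801 in mrWNT2, with 4 of 11 at least 1.5-fold lower. Of 11 macrophage markers 8 were at least 1.5-fold lower and 2 higher, with sums of 2755 and 1869 CPM. Of 6 measured monocyte markers 3 (Csf1r, Fn1 and Cd14) were at least 1.5-fold higher. The other 3 were not: Ly6c2 was 1.06-fold lower, Ccr2 1.24-fold lower and F13a1 had 1410 and 1409 CPM. The summed monocyte markers stood at 2851 and 3452 CPM. Of all 12856 genes averaging 1 CPM or more, 7.62% were at least 1.5-fold higher and 7.02% lower. The part of these shifts in the results below was not tested, and in bulk RNA fewer cells of a type and less RNA per cell cannot be told apart.

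All 10 genes averaged 10 CPM or more. In the mrWNT2 library 3 were at least 1.5-fold higher, namely Aldoc (1.97-fold), Pfkfb3 (1.85-fold) and Tpi1 (1.55-fold), against 7.62% of the 12856 genes that averaged 1 CPM or more (the tested genes). Another 2 were at least 1.5-fold lower, Fbp1 (3.56-fold) and Slc2a3 (1.72-fold), against 7.02% of those genes. Among the 8543 genes averaging 10 CPM or more the shares were 4.12% higher and 2.95% lower. Fbp1 reached that average only through the control library (17.6 CPM, against 4.95 in mrWNT2). The other 5 lay within 1.5-fold. A 95% binomial (Clopper-Pearson) interval was set on each ratio from the 2 counts. It covers counting error only, and reads without molecular identifiers are not independent molecules, so it may be too narrow. That interval lay above 1 for 6 of the 10 genes (21.0% of all tested genes), below 1 for 3 (18.8%) and included 1 for Hk2. The median log2 ratio was 0.38 over the 10 genes and 0.02 over all tested genes. The 10 genes were chosen with earlier results of these libraries known, so these counts describe them and set them apart from no other genes.

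**Figure D1:**
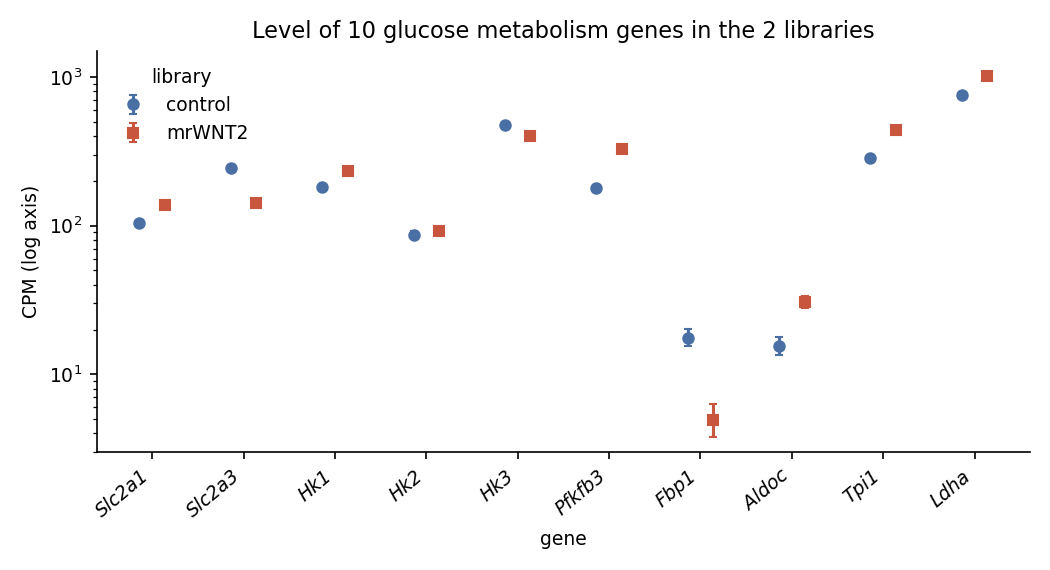
Level of each of the 10 genes in CPM (log axis) in the control library (circles) and the mrWNT2 library (squares), with exact 95% Poisson intervals that cover counting error only. Levels differ with gene length, so only the 2 libraries are to be compared within a gene. Fbp1 and Slc2a3 are the genes furthest below control in mrWNT2, from 17.6 to 4.95 CPM and from 243 to 141 CPM.

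**Figure D2:**
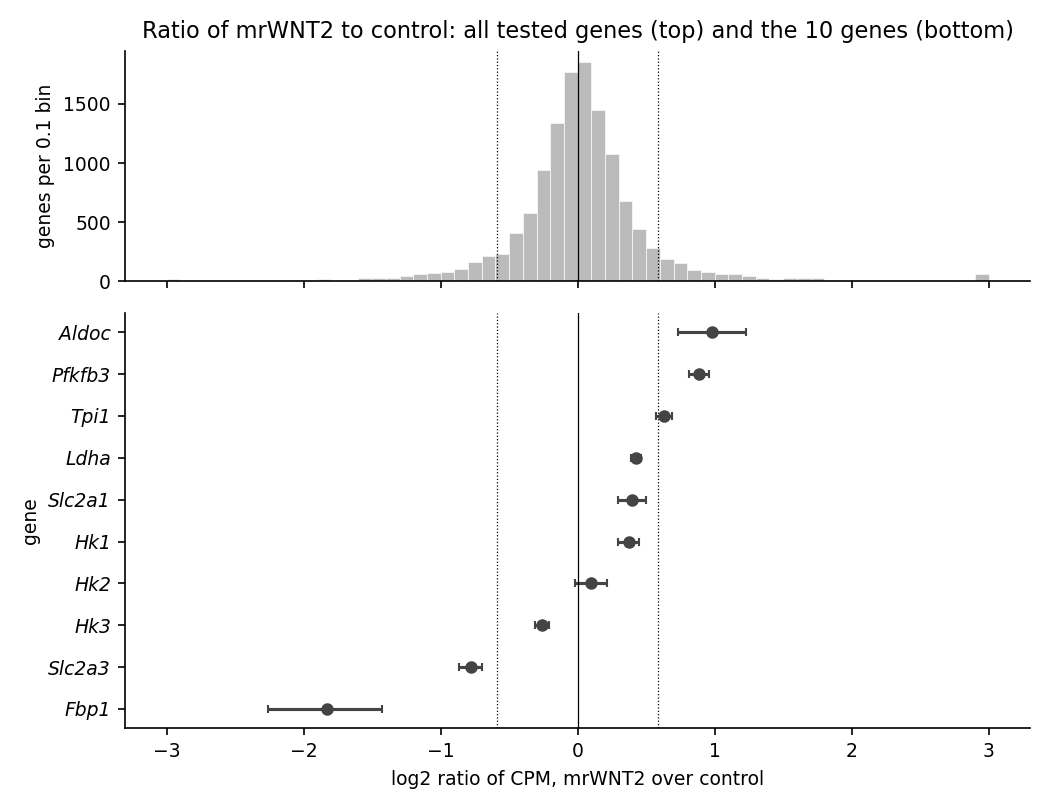
Top: number of tested genes in each 0.1-wide bin of the log2 ratio of mrWNT2 over control (12856 genes, values beyond 3 in size placed in the end bins). Bottom: the same ratio for the 10 genes with 95% binomial intervals; dotted lines mark 1.5-fold, which Aldoc, Pfkfb3 and Tpi1 pass upward and Slc2a3 and Fbp1 downward.

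The stretches before the start sites of 3 of these genes are shown because they belong to the pair of opposed control genes (Pfkfb3 and Fbp1) and to the gene of highest level per length (Ldha). They are RefSeq sequences of build GRCm38.p6, read 5′ to 3′ on the gene's strand, from the 250 bases before a start and without bases that GENCODE M21 annotates as exon. Capitals mark ACGTG on either strand (also read as CACGT), the core of the element to which hypoxia-inducible factors bind; overlapping matches on opposite strands form CACGTG, the E-box letters known for MYC.
Pfkfb3, second start, chr2:11502102-11502340, minus strand: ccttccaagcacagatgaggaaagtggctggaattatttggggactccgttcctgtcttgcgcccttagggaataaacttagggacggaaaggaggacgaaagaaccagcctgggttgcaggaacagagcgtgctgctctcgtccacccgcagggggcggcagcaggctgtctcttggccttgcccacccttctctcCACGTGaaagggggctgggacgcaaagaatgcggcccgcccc
Ldha, first start, chr7:46845554-46845803, plus strand: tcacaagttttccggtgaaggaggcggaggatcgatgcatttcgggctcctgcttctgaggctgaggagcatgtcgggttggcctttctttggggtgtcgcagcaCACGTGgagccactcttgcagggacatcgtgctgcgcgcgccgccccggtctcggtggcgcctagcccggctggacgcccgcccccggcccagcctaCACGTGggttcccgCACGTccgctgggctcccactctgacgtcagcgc
Fbp1, chr13:62888283-62888532, minus strand: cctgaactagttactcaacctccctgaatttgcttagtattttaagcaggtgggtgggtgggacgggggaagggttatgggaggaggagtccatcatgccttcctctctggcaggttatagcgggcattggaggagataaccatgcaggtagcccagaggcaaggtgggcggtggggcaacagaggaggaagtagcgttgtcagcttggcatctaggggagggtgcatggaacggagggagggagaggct
RefSeq windows matched 9 of the 10 genes by symbol. Over the 250 bases before each start, 5 of these 9 held ACGTG on either strand at 1 or more starts: Slc2a1, Hk2, Hk3, Pfkfb3 (at both of its starts) and Ldha. Counted by window, as for the background that follows, 6 of their 13 windows held it. Those of Hk1, Fbp1, Aldoc and Tpi1 held no such match. Neither did the second Ldha window, which is not shown above. The longest exon-free part of the first Pfkfb3 window, also not shown, held none either. Of all 32851 windows of that length, 16.6% held ACGTG on either strand and 6.02% held CACGTG, which stood before Ldha and Pfkfb3. Whether the matches bear on the ratios of these genes was not tested. A match is a run of letters and not a shown binding site.

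The transporter genes differed in opposite directions. Slc2a1 (ENSMUSG00000028645, chromosome 4, 119108711 to 119137983, GRCm38), which encodes GLUT1, the widely expressed basal glucose transporter, had 1392 counts in control and 1742 in mrWNT2, or 104 and 137 CPM. It was 1.32-fold higher in the mrWNT2 library (interval 1.23 to 1.41), which stays within 1.5-fold. Slc2a3 (ENSMUSG00000003153, chromosome 6, 122727809 to 122801640) encodes GLUT3, a transporter of high glucose affinity. Its 3250 control counts and 1799 mrWNT2 counts corresponded to 243 and 141 CPM, 1.72-fold lower in mrWNT2 (1.62 to 1.82). Its ratio ranked 513 from the lowest among the tested genes.

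Set against each other, the ratio of Slc2a1 to Slc2a3 was 2.26-fold higher in mrWNT2 (exact conditional interval of the odds ratio 2.06 to 2.48). This comparison within a library needs neither gene length nor library scaling. Per gene length, in the deposited FPKM, Slc2a3 was the higher of the pair in control (33.9 against 30.0 for Slc2a1) and Slc2a1 in mrWNT2 (38.6 against 19.3). The order of the main transporters per gene length therefore differed between the libraries. It rests on the deposited gene lengths, since Slc2a3 had more counts than Slc2a1 in both libraries. The summed FPKM of the 11 listed transporter genes was close in both, at 79.5 and 78.7. That closeness also rests on the deposited gene lengths, since their summed CPM was 402 in control and 351 in mrWNT2. Slc2a1 made up 37.8% of the summed FPKM in control and 49.1% in mrWNT2, and Slc2a3 42.7% and 24.5%. The remainder came mainly from Slc2a6, which encodes the lysosomal transporter GLUT6. It had 9.19 FPKM in control and 15.1 in mrWNT2 and was 1.68-fold higher in CPM (1.48 to 1.91). Slc2a8 (1.02-fold, 0.795 to 1.31) and Slc2a9 (1.23-fold lower, 1.0 to 1.52) made up the rest, and the other 6 transporter genes had at most 1 count in a library.

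The hexokinase genes differed by smaller amounts. Hk3 (ENSMUSG00000025877, chromosome 13, 55005985 to 55021385), the isoform known from myeloid cells, was the highest of them per length, at 131 and 107 FPKM, with 6377 counts in control and 5060 in mrWNT2 (477 and 398 CPM). It was 1.2-fold lower in mrWNT2 (1.15 to 1.24). Hk1 (ENSMUSG00000037012, chromosome 10, 62268855 to 62379908), which encodes the broadly expressed isoform that binds mitochondria, had 2418 and 2977 counts (181 and 234 CPM). Its ratio was 1.29 (1.23 to 1.37), higher in mrWNT2. Hk2 (ENSMUSG00000000628, chromosome 6, 82725025 to 82774454), the inducible isoform often raised in proliferating and activated cells, had 1154 and 1174 counts, or 86.3 and 92.3 CPM. A difference in Hk2 was not detectable at this depth (ratio 1.07, 0.986 to 1.16).

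Per gene length, Hk3 took 78.4% of the summed hexokinase FPKM in control and 71.6% in mrWNT2, Hk1 12.8% and 18.2%, and Hk2 8.75% and 10.2%. The order Hk3, Hk1, Hk2 was the same in both libraries. The ratio of Hk1 to Hk3 was 1.55-fold higher in mrWNT2 (1.45 to 1.66), that of Hk2 to Hk3 1.28-fold (1.17 to 1.40) and that of Hk1 to Hk2 1.21-fold (1.10 to 1.34). The summed FPKM of the hexokinases was 167 in control and 149 in mrWNT2. The hexokinase-like gene Hkdc1 had 1 count in control and 0 in mrWNT2, which allows up to 3 counts. Adpgk, which encodes an ADP-dependent sugar kinase, was 1.49-fold lower (1.44 to 1.54), from 612 to 411 CPM.

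At the control point of glycolysis the genes of opposed enzymes differed in opposite directions. Pfkfb3 (ENSMUSG00000026773, chromosome 2, 11471433 to 11554077) encodes the PFKFB isoform with the strongest bias toward making the activator fructose 2,6-bisphosphate. Its 2377 control counts and 4183 mrWNT2 counts came to 178 and 329 CPM. The mrWNT2 library was the higher, by 1.85-fold (1.76 to 1.95), and its ratio ranked 526 from the highest among the 12856 tested genes. Fbp1 (ENSMUSG00000069805, chromosome 13, 62864753 to 62888282) encodes fructose 1,6-bisphosphatase, the gluconeogenic enzyme that reverses the phosphofructokinase step. Its counts were 236 in control and 63 in mrWNT2 (17.6 and 4.95 CPM), and at 2.88 FPKM it was the lowest of the 10 genes per length in mrWNT2. Against control it was 3.56-fold lower (2.69 to 4.78), ranking 53 from the lowest, and Fbp2, the muscle form, had 1 and 0 counts. The ratio of Pfkfb3 to Fbp1 was 6.59-fold higher in mrWNT2 (4.95 to 8.89). Per gene length it stood at 2.27 in control and 14.9 in mrWNT2.

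The PFKFB family differed in make-up as well. Pfkfb4 had 1934 and 1458 counts (145 and 115 CPM) and was 1.26-fold lower (1.18 to 1.35). In deposited FPKM Pfkfb4 was above Pfkfb3 in control (30.0 against 23.8) and below it in mrWNT2 (23.2 against 43.0). This order rests on the deposited gene lengths, since Pfkfb3 had more counts than Pfkfb4 in both libraries. The ratio of Pfkfb3 to Pfkfb4 was 2.33-fold higher in mrWNT2 (2.14 to 2.54). Pfkfb3 thus made up 42.6% of the family's FPKM in control and 63.2% in mrWNT2. Pfkfb1 and Pfkfb2 each stood below 1.5 FPKM in both libraries, with intervals that included a ratio of 1. The phosphofructokinase genes themselves differed less: Pfkl was 1.42-fold higher (1.33 to 1.52), Pfkm 1.28-fold (1.0 to 1.63), and Pfkp had 206 CPM in both.

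**Figure D3:**
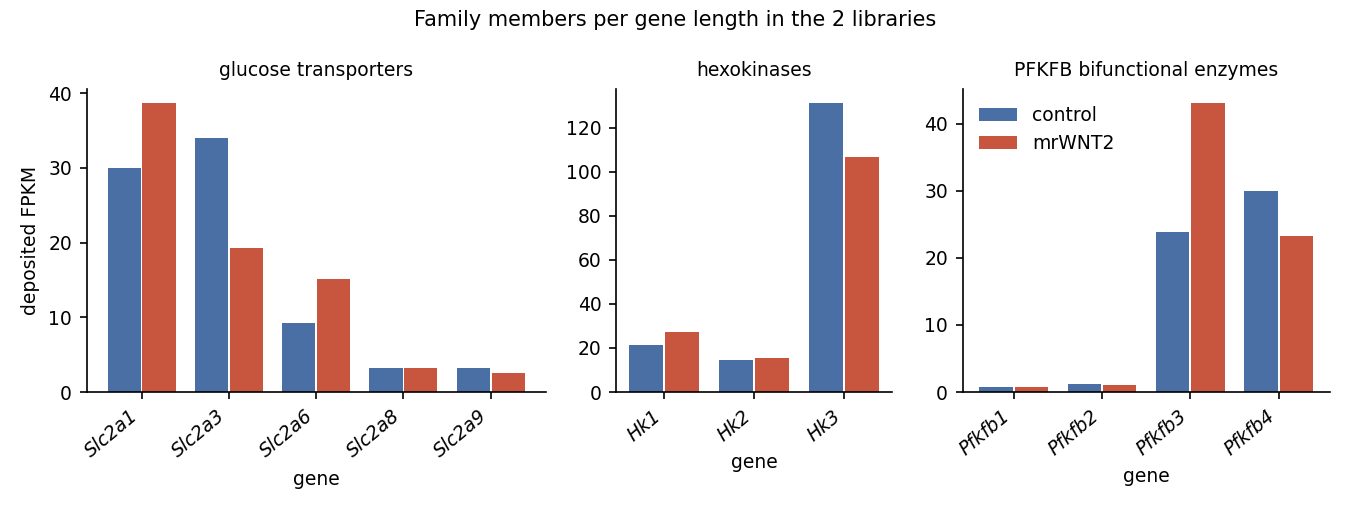
Deposited FPKM (linear axes from 0, each panel with its own scale) of glucose transporter, hexokinase and PFKFB genes in the control and mrWNT2 libraries, 1 library each and so without error bars. Per gene length, Slc2a1 passes Slc2a3 and Pfkfb3 passes Pfkfb4 in the mrWNT2 library, while Hk3 stays the highest hexokinase in both. In counts, Slc2a3 and Pfkfb3 are the higher of these pairs in both libraries.

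Downstream of the control point, both triose-stage genes were higher in mrWNT2. Aldoc (ENSMUSG00000017390, chromosome 11, 78322968 to 78327781), which encodes the aldolase isoform best known from brain, had 208 counts in control and 390 in mrWNT2, or 15.6 and 30.7 CPM. It had the highest ratio of the 10 genes, 1.97-fold (1.66 to 2.34). Most aldolase transcript was Aldoa, at 442 and 501 FPKM against 4.82 and 9.29 for Aldoc, so Aldoc was 1.08% of aldolase FPKM in control and 1.82% in mrWNT2. Aldoa was 1.16-fold higher (1.14 to 1.19), and the ratio of Aldoc to Aldoa was 1.70-fold higher in mrWNT2 (1.43 to 2.02). Tpi1 (ENSMUSG00000023456, chromosome 6, 124810586 to 124814296) encodes triose phosphate isomerase, which interconverts the triose products of aldolase. It had 3814 and 5617 counts (285 and 442 CPM) and was 1.55-fold higher in mrWNT2 (1.49 to 1.61). The call depends on the scaling, since with upper-quartile factors Tpi1 was 1.49-fold higher. Aldoc exceeded Tpi1 in its ratio by 1.27-fold (1.07 to 1.52).

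Ldha (ENSMUSG00000063229, chromosome 7, 46841475 to 46855627) had the highest level of the 10 genes per length, at 230 FPKM in control and 303 in mrWNT2. Its product, the A subunit of lactate dehydrogenase, favours the step from pyruvate to lactate. The library counts were 10073 for control and 12889 for mrWNT2, or 753 and 1014 CPM. The mrWNT2 library was 1.35-fold higher (1.31 to 1.38), within 1.5-fold. Ldhb, which encodes the B subunit, had 28 counts in each library, and the ratio of Ldha to Ldhb did not differ detectably at that depth (1.28, 0.730 to 2.24). Ldha made up 99.2% and 99.4% of the summed FPKM of Ldha, Ldhb and Ldhc. Among lactate carriers, Slc16a1 was 1.32-fold higher (1.09 to 1.59) and Slc16a3, the main export form in glycolytic cells, 1.15-fold (1.09 to 1.22).

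The pathway list held 50 genes, of which 40 were not among the 10. Of these 40, 25 were tested, with a median log2 ratio of 0.10. Of the 25, 2 passed 1.5-fold upward (7.62% of all tested genes), 0 downward (7.02%) and 23 stayed between. The 2 higher genes were Slc2a6 and Ldhd, a D-lactate dehydrogenase gene with 16 and 44 counts (2.89-fold, 1.60 to 5.49) that was named after its values were seen. Adpgk crossed the threshold with other scalings: it was 1.52-fold lower with DESeq2 size factors and in deposited FPKM and 1.54-fold lower with upper-quartile factors. Deposited FPKM gave the same ratios as DESeq2 size factors, so they add no separate check. The interval lay above a ratio of 1 for 11 of the 25 (21.0% of all tested genes). It lay below 1 for 3 (18.8%) and included 1 for 11. In lower glycolysis all 8 measured genes were within 1.5-fold: Pgk1 was 1.21-fold higher (1.17 to 1.25), Pgam1 1.14-fold (1.09 to 1.18), Eno1 1.07-fold (1.05 to 1.10) and Gapdh 1.14-fold (1.01 to 1.28). Tpi1 was 1.36-fold higher relative to Gapdh (1.2 to 1.54), its neighbour in the pathway. Gpi1, the phosphohexose isomerase gene upstream of phosphofructokinase, was 1.02-fold lower (0.992 to 1.04).

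**Figure D4:**
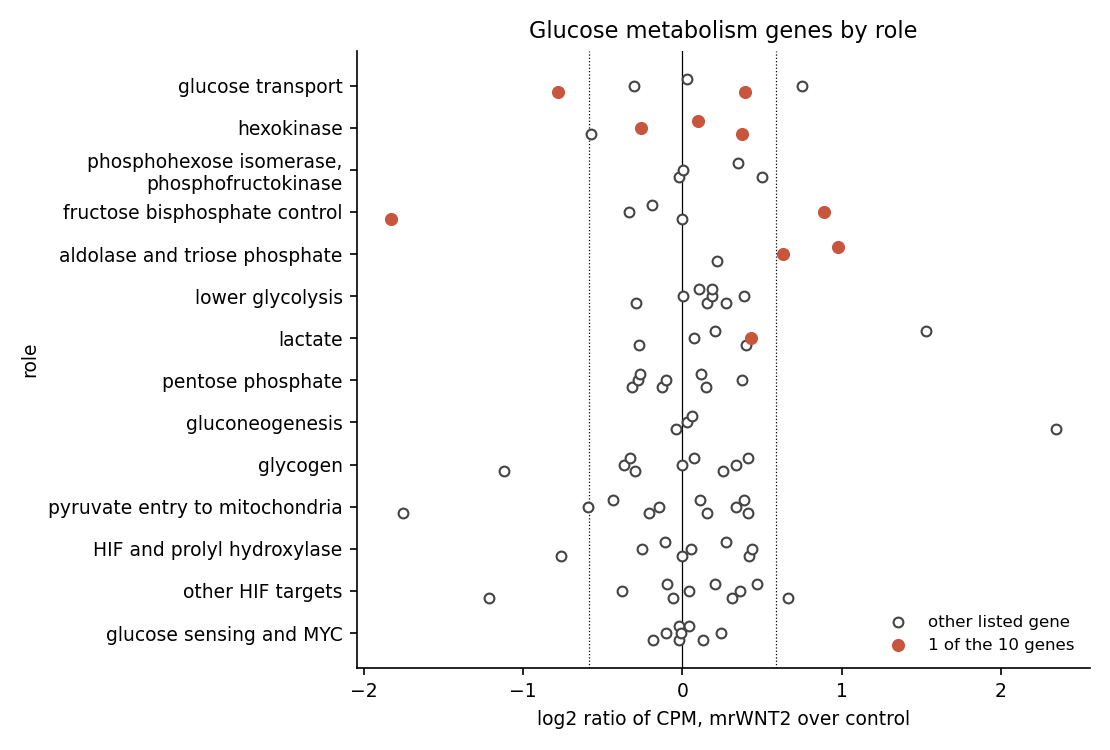
Log2 ratio of mrWNT2 over control for listed glucose metabolism and regulator genes that averaged 1 CPM or more, by role (rows; points are staggered only for legibility), with the 10 genes filled and other listed genes open. Dotted lines mark 1.5-fold; lower glycolysis lies wholly between them, while Pfkfb3 and Fbp1 lie outside them on opposite sides.

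How far stretches of a gene also stand in other genes was read from the annotated transcripts, on both strands. These other genes need not be copies: for Hk1 the only one was the opposite-strand gene Hk1os, and for Ldhd it was Znrf1. Of the 50-base stretches in the transcripts of Hk2, Hk3, Fbp1 and Aldoc, 0 were found letter for letter in a transcript of another gene, and the share was 0.376% for Pfkfb3, 1.22% for Hk1, 1.26% for Slc2a3, 1.54% for Slc2a1, 4.18% for Tpi1 and 9.26% for Ldha. Rows named as processed copies of Tpi1 or Ldha had few counts: Tpi-rs11 had 38 in control and 43 in mrWNT2, and Ldha-ps2 27 in each. The share was 15.8% for Gpi1, 17.3% for Pfkfb2, 21.0% for Ldhb, 25.1% for Gapdh and 26.0% for Eno1. It was 36.2% for Pgam1, 40.2% for Ldhd and 53.9% for Pgk1. The levels of all these genes are therefore uncertain. The sources used here do not say whether counting used strand. Spsb2, which lies across Tpi1 on the opposite strand, had 155 and 129 counts, and the other genes overlapping any of the 10 had at most 25 counts in a library.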

How the data were processed

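RNA-seq was carried out on 2 libraries, 1 control and 1 mrWNT2. The authors deposited raw counts per gene and FPKM, which divides fragments by gene length and sequencing depth. Per the submitters' processing notes, CASAVA 1.8, fastp, HISAT2 2.0.5, featureCounts 1.5.0-p3, DESeq2 1.20.0 and build GRCm38 (mm10) were used; per the labels' protocols, RNA was extracted with TRIzol and libraries made with the NEBNext Ultra kit. Coordinates are those of the deposited table.

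CPM used TMM scaling from edgeR 4.0.16 (R 4.3.3), with a factor of 0.992 in the control library and 1.01 in the other. Ratios of mrWNT2 over control used no pseudocount, with exact binomial intervals. Isoform pairs were compared by the odds ratio of their counts with its exact conditional interval (scipy 1.17.1). Levels were compared between genes only in deposited FPKM, whose gene lengths were taken as given. In the counts over all genes, 4 tested genes had 0 counts in 1 library, which entered their ratio as 3 counts; this touched 0 listed genes. The gene symbol Aldoa stood on a pair of rows, and the one with more counts was used. The method was tested on simulated data.

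The 10 genes and all lists were chosen with earlier results of these data known. Named were the 10 genes, the genes of 10 pairs, up to 4 genes per role of the lists with the largest ratio among those with a mean of at least 10 CPM, and annotated copies; marker genes, other members of the enzyme families and a few further listed genes were named after their values were seen. Alternatives covered scaling (DESeq2 1.42.0 factors, upper quartile, totals), unit, pseudocount, filter and fold. Some listed genes are not reported here.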

Additional observations from a re-analysis of the deposited data

How the results depend on the processing

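All 10 ratios kept their direction under DESeq2 size factors, upper-quartile factors, total counts, deposited FPKM and a pseudocount of 1 CPM, and 49 of those 50 values stayed inside the counting interval. The exception was Ldha with upper-quartile factors, at a log2 ratio of 0.38 in place of 0.43. Deposited FPKM gave the same ratios as the DESeq2 size factors, so these alternatives are not separate checks. Each change of scaling moves the ratios of all genes by the same factor. Fbp1 ranged from -1.88 to -1.65, Aldoc from 0.93 to 1.0, Pfkfb3 from 0.84 to 0.91, Slc2a3 from -0.83 to -0.76 and Hk2 from 0.05 to 0.12. In FPKM the 10 ratios of gene pairs could only repeat, because gene length and library scaling cancel in them, so this was no check. With upper-quartile factors 2 of the 10 genes were at least 1.5-fold higher, without Tpi1. In the pathway list 3 rather than 2 genes were at least 1.5-fold lower with DESeq2 size factors, upper-quartile factors or deposited FPKM, the third being Adpgk. With a 2-fold threshold 0 of the 10 were higher and 1, Fbp1, was lower, and in the pathway list 1 gene was higher and 1 lower, against 5 and 2 at 1.5-fold. Over all tested genes the counts of 980 higher and 902 lower became 435 and 320 at 2-fold, 2532 and 2675 without a filter, and 352 and 252 at a mean of at least 10 CPM. No paired analysis was possible because each group had 1 library, and no replicate could be left out. Among the 10 genes, Fbp1 and Aldoc had the fewest counts.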

Other observations

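Routes that branch from glycolysis were also followed. In the pentose phosphate pathway, which makes NADPH for the phagocyte oxidase, all 8 measured genes were within 1.5-fold. The intervals of 4 lay below a ratio of 1 (18.8% of all tested genes). These were Taldo1 (1.25-fold lower, 1.21 to 1.28), Pgd (1.21-fold lower), Tkt (1.2-fold lower) and G6pdx (1.09-fold lower). H6pd, which encodes the form of the endoplasmic reticulum, was 1.30-fold higher (1.2 to 1.41), and Rpe 1.11-fold higher (1.01 to 1.21). These were the 2 with intervals above 1 (21.0% of all tested genes). Of 9 glycogen genes, Pygm, the muscle phosphorylase gene, was at least 1.5-fold lower (2.18-fold, 1.47 to 3.28, from 87 and 38 counts), and 0 were higher. The interval lay above a ratio of 1 for 3 of the 9 (21.0% of all tested genes), among them Pgm2 (1.33-fold higher) and Pygb (1.26-fold higher). It lay below 1 for 4 (18.8%). Pygl, the main phosphorylase gene here, had 1663 CPM in control and 1322 in mrWNT2, 1.26-fold lower (1.23 to 1.28). Pcx, which encodes pyruvate carboxylase, the enzyme that turns pyruvate into oxaloacetate, had 45 counts in control and 218 in mrWNT2. It was 5.09-fold higher (3.68 to 7.19), the only 1 of 31 measured genes of these branches at least 1.5-fold higher (7.62% of all tested genes). Pcx reached the mean of 10 CPM used for naming only through the mrWNT2 library (17.1 CPM, against 3.36 in control). Pdk4 (3.38-fold lower, 1.58 to 8.05, from 32 and 9 counts), Pdp1 (1.51-fold lower) and Pygm were at least 1.5-fold lower (7.02% of all tested genes). Pdk4 averaged 1 CPM or more only through the control library, with 2.39 CPM there and 0.708 in mrWNT2. The better measured Pdk1, with 780 and 985 counts, was 1.33-fold higher (1.21 to 1.46). Of 10 genes of pyruvate entry to mitochondria, the interval lay above 1 for 3 (21.0% of all tested genes). It lay below 1 for 4 (18.8%). G6pc3, Pck2 and Slc37a4, other genes of glucose output, had intervals that included 1.

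Among regulators, Hif1a, which encodes the oxygen-regulated subunit of hypoxia-inducible factor, had 157 CPM in control and 213 in mrWNT2, 1.35-fold higher (1.28 to 1.43). The prolyl hydroxylase genes Egln1 and Egln3 were 1.34-fold and 1.21-fold higher, and Vhl was 1.19-fold lower. Epas1, which encodes another oxygen-regulated subunit, had 41 counts in control and 23 in mrWNT2 and was 1.70-fold lower, with an interval (0.994 to 2.96) that included 1. Of 10 other measured target genes of that factor, only Bnip3 was at least 1.5-fold higher (7.62% of all tested genes). Only P4ha2 was at least 1.5-fold lower (7.02%), from 22 and 9 counts. P4ha1 was 1.38-fold higher, Vegfa 1.28-fold higher and Ndrg1 1.30-fold lower. Over these 10 targets the interval lay above a ratio of 1 for 4 (21.0% of all tested genes). It lay below 1 for 2 (18.8%) and included 1 for the other 4. P4ha2 averaged 1 CPM or more only through the control library. Whether the factor had a part in these ratios was not tested. G6pdx, Rpe, Pygm, Pdk4, Pdp1, P4ha2 and Epas1 were named after their values were seen. All 8 measured genes of glucose sensing and MYC were within 1.5-fold, with Myc 1.07-fold lower (1.01 to 1.14) and Tigar, which encodes a fructose 2,6-bisphosphatase that opposes PFKFB enzymes, 1.18-fold higher (1.02 to 1.37).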
